A study of Rattus norvegicus with 12 samples.

Results

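Rats on low sodium and rats on normal sodium were compared by the genes their left ventricles expressed, where all animals received angiotensin II (AngII). The comparison used the 6 arrays of the series of 12 whose titles name AngII, 3 per diet, and they were chosen by those titles alone. All animals were male Sprague-Dawley rats, an outbred strain, and their age is not given. Both groups ate a diet with 60% fructose for 8 weeks and carried a subcutaneous AngII infusion of 200 ng/kg/min during the last 4 weeks, so fructose and AngII are common to both. The diets differed in salt, at 0.64% NaCl for normal sodium and under 0.01% NaCl for low sodium, with 40 rats per diet before division by infusion. The other 6 arrays came from rats on the same diets without infusion, and they serve here as a second comparison of the diets. The labels number the samples as replicates, state no pooling and do not say that each number is a separate animal, so p-values measure the spread between these samples. All 12 arrays come from fructose-fed rats, and the tissue was the left ventricle, with no separation of its cell types.

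AngII acts on the heart through its type I receptor and, less directly, through blood pressure and aldosterone. It is known to promote cardiomyocyte growth, fibroblast activation, collagen deposition, oxidant production and entry of macrophages into the wall. Sodium intake sets the activity of the body's own renin-angiotensin-aldosterone system, and a fructose-rich diet produces insulin resistance and raised blood pressure in rats. The question was whether salt restriction alters what the infused, fructose-fed ventricle expresses.

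Each value below is the log2 of a probe's signal minus the 75th percentile of its array, so 0 marks a bright probe and 1 unit is a doubling. Probes bind with different strength, and levels of different genes are not compared. A difference is always low minus normal sodium, given with its limma standard error (3 arrays per group). Signal was well above background for 19224 to 22460 of 30367 probes on the 6 arrays, none had a saturated spot, and their 75th percentiles lay between 1638 and 1881 intensity units. The 12 arrays lay on 3 slides, and a slide carried the 4 groups' arrays of one replicate number, each group in a fixed place, for which reason place on the slide and group cannot be told apart. All 11 tested cardiomyocyte markers, among them the myosin heavy chain Myh6, the light chain Myl2 and the troponin Tnni3, were well above background on all 6 arrays, as ventricle requires. The atrial gene Bmp10 was not well above background on any of the 6 arrays, while the atrial light chain Myl7 was well above it on all 6.

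No single gene passed the test over the whole array. Of 20020 probes tested, limma called 0 after Benjamini-Hochberg adjustment at 0.05 (0% of probes), and the smallest adjusted p was 0.0567. At an unadjusted p under 0.05 there were 740 probes higher on low sodium (3.7%) and 1483 lower (7.41%), and the median of all probes was -0.05. The split depends on the scaling: with each array centred on its median the counts were 995 higher and 620 lower with a median of 0.06, in the authors' own values 2037 and 1038, after quantile normalization 939 and 1056, and with the percentile taken over probes 1034 and 1176. Gene groups are therefore read against the median of all 11211 named genes, -0.05, of which 57.4% lay below 0. With median centring, which shifts all genes alike, that median was 0.07, and list medians given under it are read against 0.07. Between groups without overlap, where all 3 arrays of one diet lay beyond all 3 of the other, there were 1240 genes higher (11.1%) and 1492 lower (13.3%). Each count of list members entirely higher or lower is read against these shares.

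**Figure D1:**
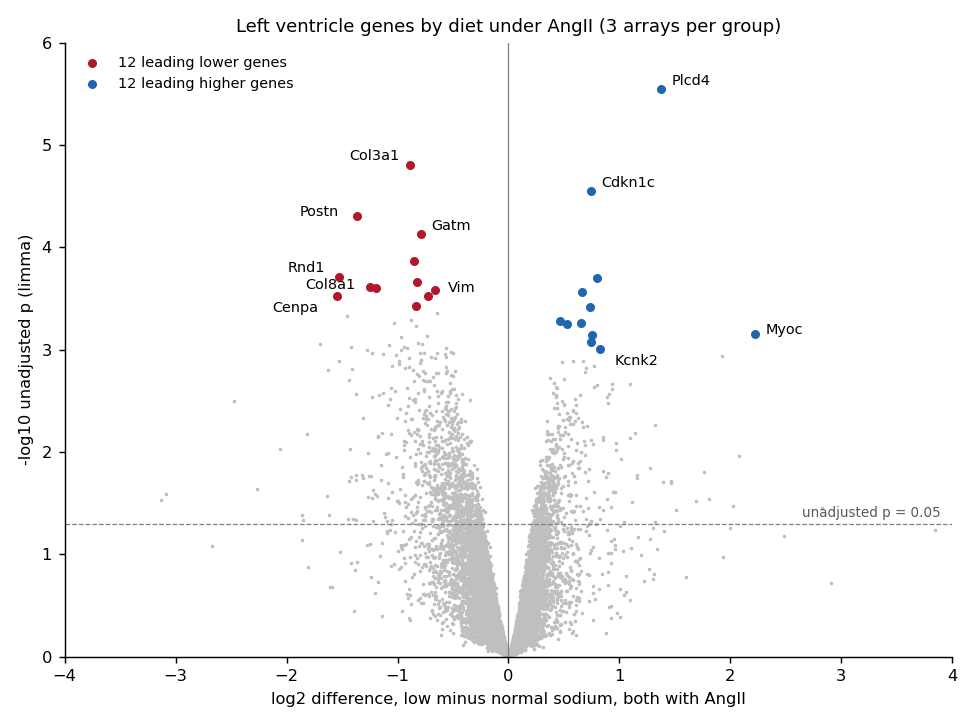
Each point is 1 of 11211 genes, with the log2 difference between low and normal sodium in infused rats on the horizontal axis and the -log10 of the unadjusted limma p on the vertical axis; the 12 leading genes of each direction are coloured. Plcd4 stands highest at 1.37, Col3a1 leads the lower side at -0.88, and no point passed adjustment at 0.05.

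Plcd4, a phospholipase C that cleaves a membrane inositol lipid into 2 second messengers, led the genes that were higher on low sodium. Its values were -3.54, -3.90 and -3.93 on the normal sodium arrays and -2.57, -2.51 and -2.16 on the low sodium arrays. All 3 low sodium arrays lay above all 3 others, and the gap between the groups was wider than the spread within either. The difference was 1.37 ± 0.15, or 2.59-fold higher (adjusted p = 0.0567, and 0.072 with the replicate number as a block), and a second probe of the gene gave 1.38 ± 0.17. Plcd4 passed the threshold in 7 of 23 other settings, for example in the authors' values (adjusted p = 0.0307) and after normexp background correction (0.0477), and its adjusted p ranged from 0.0128 to 0.298, the last without normal sodium replicate 2. Without infusion the same diet difference was -0.15 ± 0.15.

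Cdkn1c, the cyclin-dependent kinase inhibitor p57, came second among the higher genes with a symbol. A higher probe without a symbol had a smaller p, at 1.61 ± 0.22 (adjusted p = 0.079), and passed the threshold in 4 of the other settings. Cdkn1c stood at -1.44, -1.56 and -1.45 on normal sodium and at -0.60, -0.79 and -0.84 on low sodium, with tight groups that did not overlap. The difference was 0.74 ± 0.11 (1.67-fold, adjusted p = 0.11), and 0.47 ± 0.15 by its other probe. Myoc, the secreted glycoprotein myocilin, had the greatest difference of the 12 leading higher genes, 2.22 ± 0.47 or 4.66-fold (adjusted p = 0.28). Its arrays read -3.44, -2.90 and -3.23 on normal sodium against -0.09, -1.76 and -1.06 on low sodium, so that the low sodium group was itself scattered over more than 1 log2 unit. The remaining 9 lay between 0.47 and 0.83. Tm7sf2, a sterol reductase of cholesterol synthesis, stood at 0.79 ± 0.14, and Tmod4, which caps the pointed end of actin filaments, at 0.66 ± 0.12. Emc9, a subunit of a membrane protein insertion complex of the endoplasmic reticulum, stood at 0.73, Svip, an inhibitor of protein degradation from that organelle, at 0.53, and Dhrs7c, a dehydrogenase of the sarcoplasmic reticulum, at 0.47. Nudt4, a phosphatase of inositol pyrophosphates, was at 0.66, the repair helicase Mcm8 at 0.75, the kelch protein Klhl38 at 0.74 and the background potassium channel Kcnk2 at 0.83. Kcnk2 was at 0.70 and 0.26 by its other probes, the latter with overlapping groups.

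Of the genes that were lower on low sodium, Col3a1 came first. This fibrillar collagen of distensible tissue stood at 4.25, 4.16 and 4.26 on normal sodium and at 3.28, 3.31 and 3.43 on low sodium. Both groups were tight, and the lowest normal sodium array lay well above the highest low sodium array. The difference was -0.88 ± 0.12, or 1.85-fold lower (adjusted p = 0.079, 0.134 with the replicate block), and it passed the threshold with array weights (adjusted p = 0.0128) and with a trended robust variance prior (0.0203), and its adjusted p over 23 settings ranged up to 0.512 with median centring. The network collagen gene Col8a1 stood at -0.49, -0.53 and -0.55 against -1.61, -1.66 and -2.04, a difference of -1.25 ± 0.23 (2.38-fold lower, adjusted p = 0.264). Postn, a matricellular protein of activated fibroblasts, differed by -1.36 ± 0.21 (adjusted p = 0.142). It was a dim probe, at -5.33, -5.57 and -5.15 against -6.40, -7.10 and -6.64, and its size depends on how background is handled, with -0.47 after normexp against -0.23 in the values of the authors.

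The other 9 leading lower genes had adjusted p values of 0.17 to 0.264. A dim lower probe without a symbol stood at -1.08 ± 0.16 (adjusted p = 0.11), with a smaller p than any leading lower gene except Col3a1. With array weights that probe passed the threshold (adjusted p = 0.0161). Vim, the intermediate filament vimentin of mesenchymal cells, stood at 2.18, 2.34 and 2.40 on normal sodium and at 1.63, 1.66 and 1.64 on low sodium, a difference of -0.66 ± 0.12. Aplnr, the apelin receptor of endothelium, read -0.41, -0.14 and -0.64 against -1.59, -1.43 and -1.75, or -1.19 ± 0.22. In neither gene did the groups overlap. Rnd1, a small GTPase that loosens the actin cytoskeleton, was at -1.53 ± 0.28, Gatm, the enzyme of the first step of creatine synthesis, at -0.79 ± 0.13 (-0.28 by its other probe, with overlap), and the tissue kallikrein Klk1 at -0.85 ± 0.15. The lysosomal peptide transporter Slc15a3 stood at -0.83, the transcriptional regulator Lmo2 at -0.83 and the class I histocompatibility gene RT1-N3 at -0.73. Cenpa, the centromeric histone, exceeded background on all normal sodium arrays but was not well above background on any array of the low sodium group. Its measured difference of -1.54 came from signals near background, was -0.28 after normexp and turned to 0.33 in the authors' values.

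**Figure D2:**
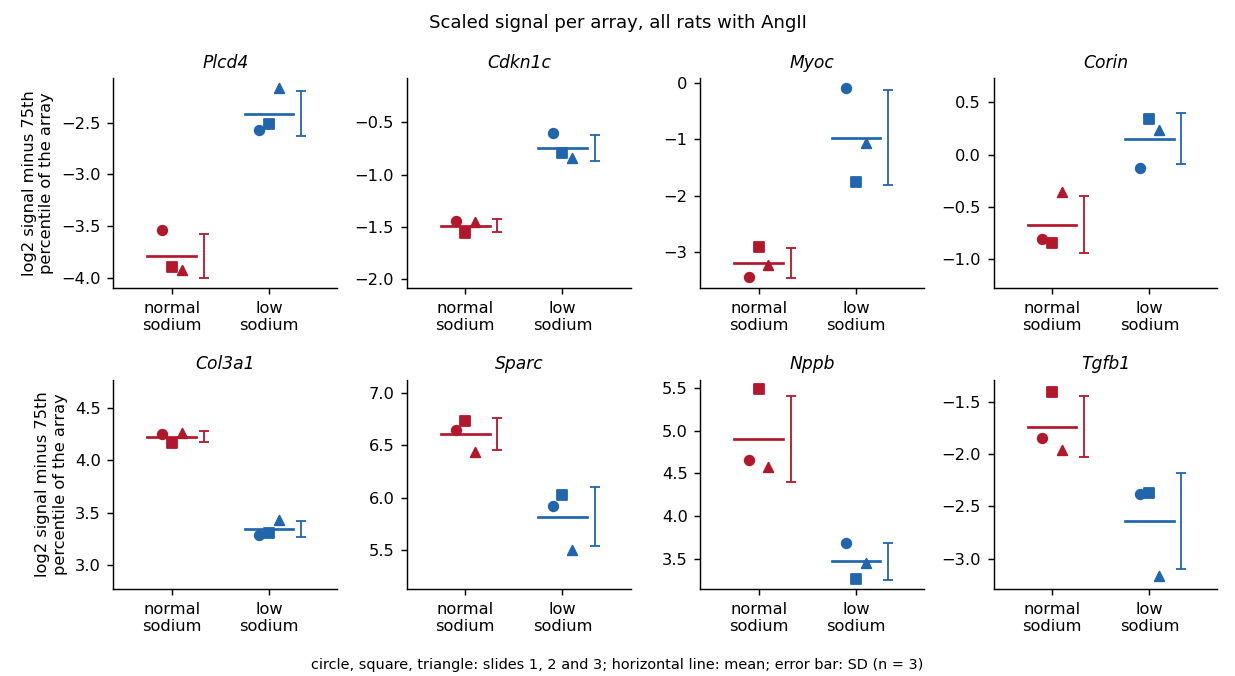
Scaled log2 signal of 8 genes on each of the 6 infused arrays, with points marked by slide, a line at the group mean and a bar for the SD (n = 3). In all 8 genes, including Plcd4 at 2.59-fold higher and Col3a1 at 1.85-fold lower on low sodium, the groups do not overlap.

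Matrix genes lay mostly on the lower side. Among fibrillar collagens and the enzymes that process them, 25 of 26 genes on the array were tested and 24 lay below 0, with a median of -0.36 against -0.05 for all genes. In 13 of them (52%) the low sodium arrays lay entirely below the normal sodium arrays, where 13.3% of all genes did, and in none above. Slides 1, 2 and 3 gave medians of -0.29, -0.34 and -0.55. The median stayed below 0 in every scaling tried, from -0.36 to -0.25. No member passed over the whole array, and the smallest adjusted p was that of Col3a1.

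Within that group Col5a1, a minor fibrillar collagen that nucleates fibrils, stood at 0.23, 0.38 and 0.36 on normal sodium and at -0.34, -0.29 and -0.76 on low sodium, a difference of -0.79 ± 0.18. All its low sodium arrays were lower. Col1a1, the main chain of type I collagen, read 2.44, 2.20 and 2.43 against 1.76, 1.92 and 1.59, or -0.60 ± 0.20 by its brightest probe and -1.02 ± 0.16 by another. Its partner chain Col1a2 was at -0.36 ± 0.15, the lysyl oxidase Loxl2, which crosslinks collagen, at -0.65 ± 0.17 and the lysyl hydroxylase Plod1 at -0.45 ± 0.12. These 3 genes also had groups that did not overlap.

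Basement membrane and network collagens gave 12 of 13 genes below 0 and a median of -0.19. Entirely lower were 6 (46.2%) and entirely higher 1 (7.69%), against 13.3% and 11.1% of all genes. Beside Col8a1, the microfibrillar collagen Col6a2 stood at -0.56 ± 0.13, the fibril-associated Col16a1 at -0.56 ± 0.15, the laminin-binding nidogen Nid2 at -0.74 ± 0.21 and the basement membrane chain Col4a1 at -0.42 ± 0.17. The last of these was -0.69 ± 0.13 by another probe. Elastic fibre, proteoglycan and matricellular genes had 29 of 37 below 0, a median of -0.27 and 14 genes (37.8%) entirely lower. Eln, which encodes elastin, stood at 1.68, 1.60 and 1.62 on normal sodium and at 0.80, 0.78 and 0.91 on low sodium (-0.80 ± 0.19, and -0.45 with overlap by a dim second probe). Each group of 3 spanned less than 0.2, far less than the distance between them.

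Sparc, a collagen-binding matricellular protein, read 6.65, 6.73 and 6.44 against 5.92, 6.03 and 5.50, a difference of -0.79 ± 0.18, with no overlap. The microfibril genes Mfap4 and Fbn1 were at -0.76 ± 0.17 and -0.75 ± 0.32, and the proteoglycan lumican (Lum) at -0.49 ± 0.16. Decorin (Dcn), a proteoglycan that binds the same fibrils, was at -0.12 ± 0.10 and fibronectin (Fn1) at -0.25 ± 0.22, both with overlapping groups. Not all matrix genes followed the collagens, then.

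Genes that remodel and regulate the matrix also lay mostly below 0. Of 30 matrix proteases and inhibitors 25 lay below 0, with a median of -0.24. Entirely lower were 9 (30%), against 13.3% of all genes, and none was entirely higher. In the authors' values the median was -0.16 with 11 above 0. The sheddases Adam17 and Adam15 stood at -0.47 ± 0.13 and -0.55 ± 0.16, the tissue inhibitor Timp3 at -0.64 ± 0.24 and the serpin Serpine2 at -0.38 ± 0.14. Timp1 and the gelatinase Mmp2 were at -0.31 ± 0.16 and -0.27 ± 0.15, with overlap. A dimmer second probe of Mmp2 gave -0.30 ± 0.23 without overlap. TGF-beta and BMP signalling genes had a median of -0.16, with 22 of 31 below 0, and one of -0.08 in the authors' values. Tgfb1, the profibrotic ligand itself, read -1.85, -1.41 and -1.96 on normal sodium and -2.38, -2.38 and -3.17 on low sodium. That made -0.90 ± 0.26 (1.87-fold lower, adjusted p = 0.299), without overlap, and without low sodium replicate 3 it was -0.64. The BMP ligand Bmp4 stood at -0.43 and the follistatin-like Fstl1 at -0.51, while the activin receptor Acvr2b was at 0.34 ± 0.12 (0.11 by another probe). Integrins and adhesion genes had a median of -0.09, which turned to 0.03 with median centring. The fibronectin receptor chain Itga5 (-0.86 ± 0.20) and the focal adhesion protein Zyx (-0.57 ± 0.16, -0.14 as the mean of its probes) were the members with the smallest p.

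**Figure D3:**
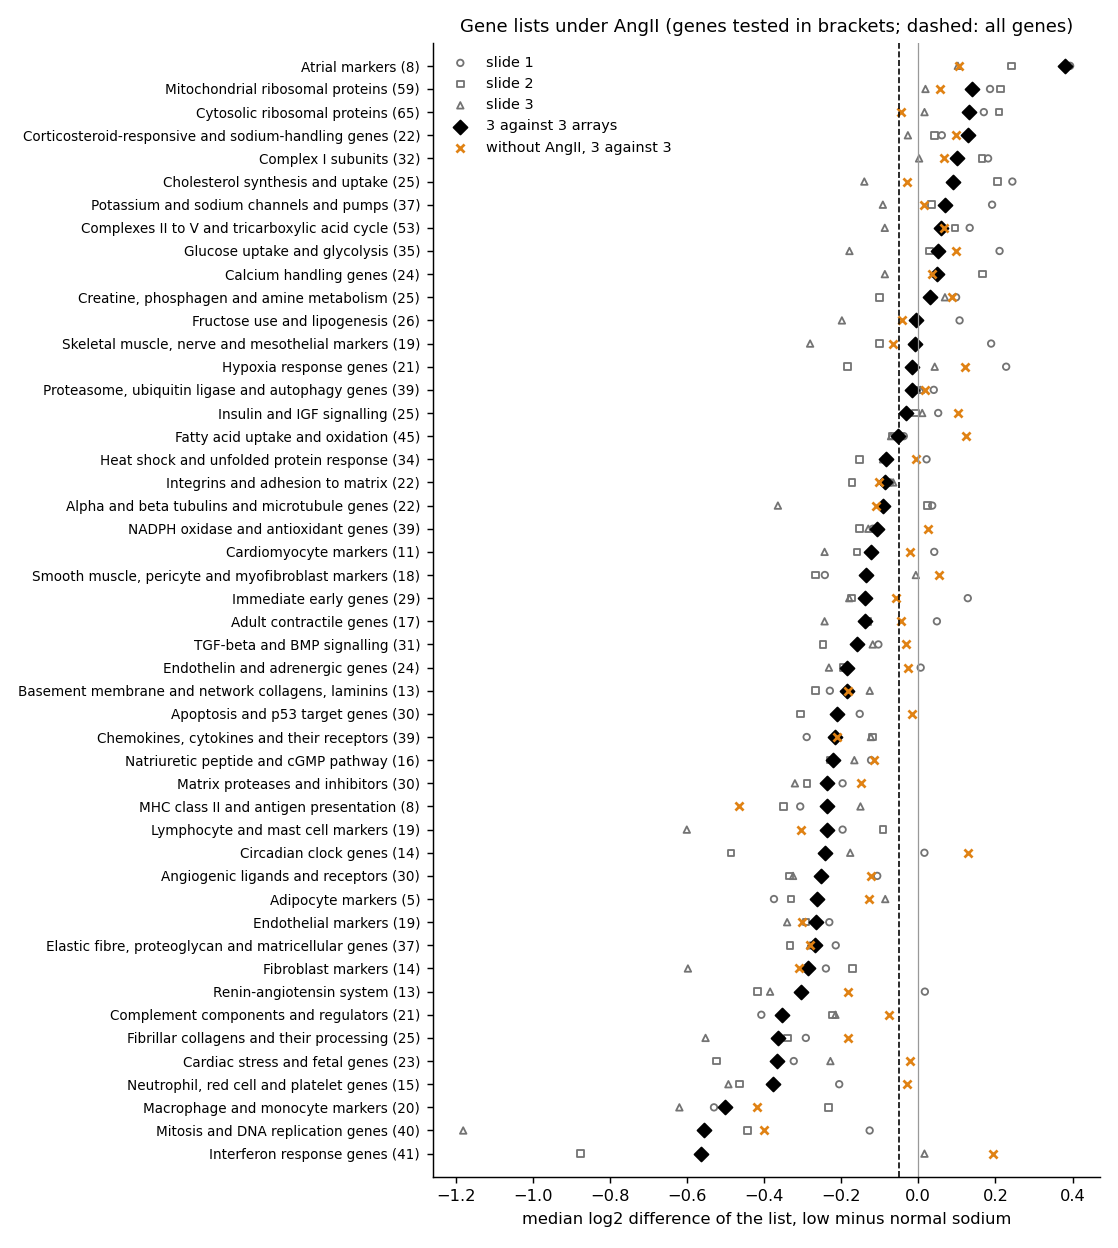
Median log2 difference (low minus normal sodium) of each of 48 gene lists in infused rats (diamonds), with the 3 within-slide medians (open symbols), the same median in uninfused rats (crosses) and the median of all genes, -0.05 (dashed). Interferon genes (-0.56), mitosis genes (-0.56) and macrophage markers (-0.50) lie lowest, atrial markers (0.38) lie highest, and ribosomal protein lists lie above 0.

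Markers of several cell types moved with the matrix genes, and in RNA from whole tissue fewer cells of a type and less RNA per cell cannot be told apart. The fibroblast list shared Col1a1 and Col1a2 with the fibrillar collagen list and included the proteoglycans Dcn and Lum. It was thus not independent of the matrix genes. Fibroblast markers had 11 of 14 below 0 and a median of -0.29 (-0.17 without low sodium replicate 3). Their summed score, the mean of the members after each is centred on the 6 arrays, ran from 0.10 to 0.20 on normal sodium and from -0.24 to -0.09 on low sodium, and Thy1 was too dim to test, being well above background on 1 normal sodium array and on 0 low sodium arrays. The fibroblast activation gene Fap stood at -0.66 ± 0.22 and the stromal endosialin Cd248 at -0.51 ± 0.13, but the lineage genes Pdgfra and Tcf21 were at -0.23 ± 0.15 and -0.20 ± 0.17 with overlapping groups. Endothelial markers had 17 of 19 below 0 (median -0.27) and scores of 0.10 to 0.16 against -0.24 to -0.01. Cdh5, the junctional cadherin of endothelium, stood at -0.45 ± 0.14, Sox18 at -0.57 ± 0.16 and Ramp2 at -0.67 ± 0.17. Pecam1 and Vwf were at -0.15 and -0.17 with overlap, and Plvap, the diaphragm protein of fenestrated vessels, was higher on all low sodium arrays (0.90 ± 0.24).

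Macrophage and monocyte markers lay lowest of the marker lists. Of 20 tested, 19 were below 0 and 12 (60%) were entirely lower, with a median of -0.50 and slide medians of -0.53, -0.23 and -0.62. Scores were 0.15 to 0.29 on normal sodium and -0.28 to -0.09 on low sodium, and Marco, Mertk and Vsig4 were too dim to test. Adgre1, the F4/80 antigen, read -2.32, -2.27 and -2.70 against -3.05, -3.00 and -3.25, a difference of -0.67 ± 0.15. Cd68, a lysosomal glycoprotein of macrophages, read -1.01, -1.22 and -0.99 against -1.73, -1.55 and -1.69, or -0.58 ± 0.18. Both were lower on every low sodium array. The calcium-binding Aif1 was at -0.54 ± 0.14, the colony-stimulating factor receptor Csf1r at -0.69 ± 0.26 (-0.39 with overlap by another probe), the Fc receptor Fcgr1a at -0.72 ± 0.22 and the haemoglobin scavenger receptor Cd163 at -0.38 ± 0.28. Cardiomyocyte markers had a median of -0.12, with overlapping scores (0.01 to 0.20 against -0.28 to 0.06), and smooth muscle and pericyte markers one of -0.13 that vanished without normal sodium replicate 1 (0.00). The part of these cell types in the matrix and immune values was not tested.

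Immune genes outside the marker list were also below the median of all genes. Complement components had 16 of 21 below 0, a median of -0.35 and 11 (52.4%) entirely lower, against 13.3% of all genes. Slide medians were -0.41, -0.22 and -0.21. C1qa, part of the recognition molecule of the classical pathway, stood at 1.36, 1.01 and 1.27 on normal sodium and at 0.64, 0.70 and 0.71 on low sodium (-0.53 ± 0.19). Its groups did not overlap, nor did those of the protease gene C2 (-0.76 ± 0.19) or of C1r (-0.37 ± 0.11). C3ar1, the receptor of the C3a fragment, was not well above background on any array of the low sodium group. Its measured difference of -1.31 is therefore read with caution, as normexp gave -0.40 and the authors' values -0.10.

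Chemokines, cytokines and receptors had a median of -0.22, with 27 of 39 below 0, but one of -0.11 after normexp and of -0.05 in the authors' values, where 18 of 39 lay above 0. Cxcr4, the receptor of Cxcl12, read -1.19, -0.64 and -1.47 on normal sodium and -2.46, -2.34 and -2.33 on low sodium. Its low sodium arrays were close together and all lower, a difference of -1.27 ± 0.28 or 2.42-fold (adjusted p = 0.28). Its ligand Cxcl12 was at 0.11 ± 0.11 with overlap. Csf1, the growth factor of macrophages, stood at -0.55 ± 0.17 and the monocyte chemoattractant Ccl2 at -0.39 ± 0.27. Class II histocompatibility genes were divided, with 5 of 8 below 0, 3 above and a median of -0.24 (-0.15 without low sodium replicate 1). RT1-Da (-0.65 ± 0.20) and the peptide loader RT1-DMa (-0.80 ± 0.19) were entirely lower, and the invariant chain Cd74 was at -0.14 ± 0.13. RT1-Bb, a class II beta chain, was at 2.91 ± 2.08 by its brightest probe, where normal sodium replicate 1 read -8.93, and at -1.22 ± 0.30 by another, without overlap. The former was -0.41 with that array left out. Lymphocyte and mast cell markers had a median of -0.24, which was 0.07 in the authors' values and -0.08 without low sodium replicate 3. Genes of neutrophils, red cells and platelets had 12 of 15 below 0 and a median of -0.38, with slides at -0.21, -0.46 and -0.49. Alas2, the haem synthesis enzyme of erythroid cells, stood at 1.84, 1.85 and 2.08 against 1.31, 0.94 and 1.26 (-0.76 ± 0.26), and beta-globin Hbb, which shares sequence with other globin genes, at -0.44 ± 0.15. No low sodium array reached the lowest normal sodium array in either gene.

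Interferon response genes had the lowest median of all lists together with mitosis genes. Of 41 tested, 37 lay below 0, with a median of -0.56, and 16 (39%) were entirely lower. The slides did not act alike: slide 1 gave -0.56, slide 2 -0.88 and slide 3 0.02, and list scores were 0.24, 0.37 and 0.09 on normal sodium against -0.33, -0.38 and 0.01 on low sodium. The median lay between -0.65 and -0.39 when single arrays were left out. Bst2, which tethers budding viruses to the cell surface, read 3.28, 2.71 and 3.21 on normal sodium and 2.08, 2.43 and 2.22 on low sodium, a difference of -0.82 ± 0.23. Irf7, the transcription factor that amplifies the type I response, stood at 1.49, 1.96 and 1.68 against 0.88, 1.02 and 1.11 (-0.71 ± 0.29). In both genes all normal sodium arrays were higher. Irf9, the DNA-binding subunit of the interferon-activated complex, was at -0.57 ± 0.19, the guanylate-binding Gbp2 at -0.69 ± 0.22 and the immunoproteasome subunit Psmb8 at -0.66 ± 0.20. The ubiquitin-like Isg15 was at -0.90 ± 0.45 with overlap, since slide 3 gave 0.06.

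The promoters of these genes are shown because the list lay to one side as a group and the element named for its response can be looked up in the sequence. RefSeq promoters (assembly GRCr8, 250 bases before the start) were matched for 34 of the 41 genes. The motif was the core of the interferon-stimulated response element, spelled GAAA, any 2 bases, GAAA, and it was searched on both strands with overlapping matches kept. It was present in 23 of 34 promoters (67.6%), against 902 of 27457 promoters of the table (3.29%) and 252 of 9196 promoters of tested genes (2.74%). The list was written from genes known to respond to interferon, so this share describes the list and is no evidence on diet. A match is a description of the letters in the window, not a site in use, and windows without it say nothing of the factor. The following 5 windows are those of Bst2, Gbp2 and Irf7 and of 2 further genes chosen after their values were seen, Irgm and Parp14 (log2 differences of -0.78 and -0.68). All 5 genes were lower on low sodium, while Igtp (0.12), Sp110 (0.08) and Ifi27 (0.08) carried the motif with differences above 0. Capitals mark the motif, which appears as TTTC, any 2 bases, TTTC where it lies on the other strand. Positions are chr16:18255048-18255133 (minus strand) for Bst2, chr2:234005661-234005726 (plus) for Gbp2, chr10:33742579-33742647 (minus) for Irgm, chr11:78408023-78408102 (plus) for Parp14 and chr1:205800048-205800127 (minus) for Irf7.
Bst2: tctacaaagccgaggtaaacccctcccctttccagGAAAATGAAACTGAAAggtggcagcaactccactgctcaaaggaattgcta
Gbp2: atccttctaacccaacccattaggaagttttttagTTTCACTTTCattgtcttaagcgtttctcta
Irgm: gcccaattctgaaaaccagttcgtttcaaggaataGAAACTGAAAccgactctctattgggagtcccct
Parp14: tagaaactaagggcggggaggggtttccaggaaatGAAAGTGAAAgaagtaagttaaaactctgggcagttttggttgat
Irf7: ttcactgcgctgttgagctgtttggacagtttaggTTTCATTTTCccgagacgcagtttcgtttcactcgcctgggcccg
In Bst2 there are 2 overlapping matches, the first of which begins 131 bases before the start. In Gbp2 and Irgm the match begins 31 and 34 bases before it.

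**Figure D4:**
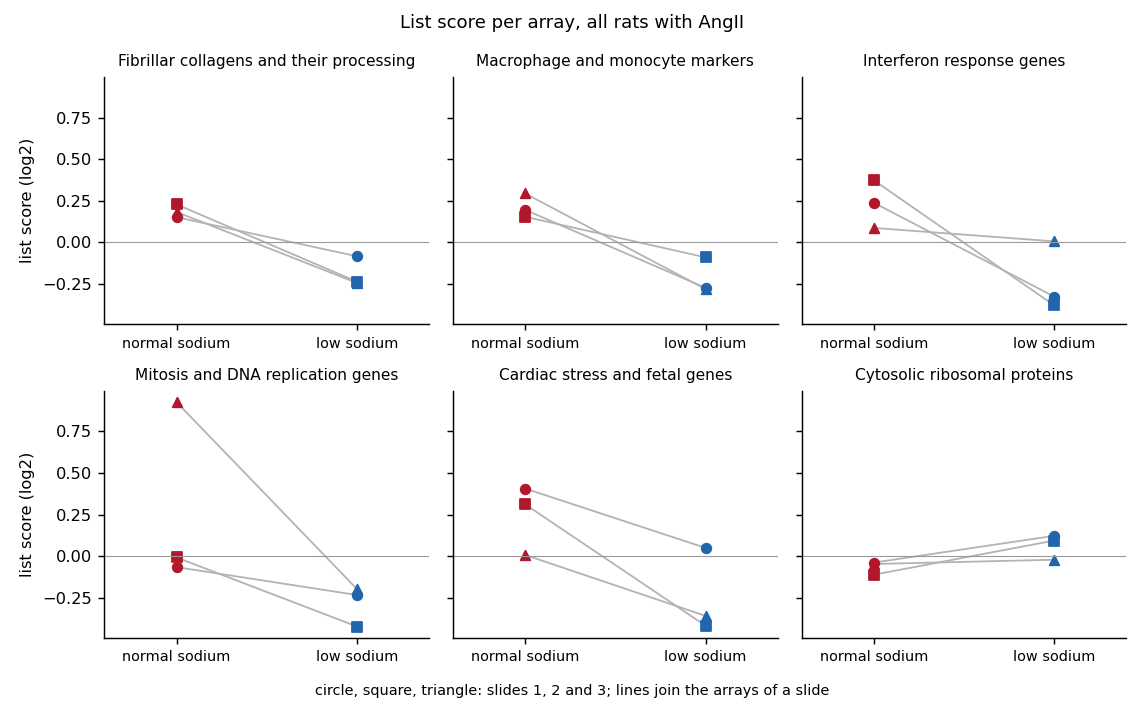
Score of 6 gene lists on each infused array (mean log2 deviation of the members from their average over the 6 arrays), with lines joining the arrays of a slide. Collagen and macrophage scores are lower on low sodium on all 3 slides, interferon scores differ little on slide 3 (0.09 and 0.01), and the mitosis gap rests largely on normal sodium replicate 3 (0.93).

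Mitosis and DNA replication genes had 35 of 40 below 0 and a median of -0.56, with 19 (47.5%) entirely lower. This value rested in large part on 1 array: the score was 0.93 on normal sodium replicate 3 and -0.07 and -0.01 on the other normal sodium arrays, against -0.23, -0.42 and -0.20 on low sodium. Slides gave -0.13, -0.44 and -1.18, and without normal sodium replicate 3 the median was -0.23. Ccnb1, the mitotic cyclin, stood at -4.43, -4.44 and -3.17 against -4.94, -5.16 and -4.76 (-0.94 ± 0.30, and -0.52 without that array). The groups did not overlap, with the third normal sodium array far above the others. The replication helicase subunit Mcm6 was at -0.93 ± 0.26 and -0.73 without it, and the spindle protein Tpx2 at -1.10 ± 0.36 and -0.67. Mki67, the proliferation antigen, read -2.22, -2.03 and -0.55 against -2.37, -2.70 and -1.98, with overlap. Its dimmer probes gave -0.94 ± 0.46 without overlap and -0.91 ± 0.47 with overlap. Cdkn1c, which brakes the cell cycle and is a member of this list, was its 1 gene entirely higher.

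Genes of cardiac stress and the fetal programme, which loaded ventricles are known to express, had 20 of 23 below 0 and a median of -0.37. Slides gave -0.32, -0.52 and -0.23, and 6 genes (26.1%) were entirely lower. Nppb, the brain natriuretic peptide, read 4.66, 5.49 and 4.57 on normal sodium and 3.69, 3.26 and 3.45 on low sodium. The lowest normal sodium array lay above the highest low sodium array, and the difference was -1.44 ± 0.35 or 2.71-fold (adjusted p = 0.293). Nppa, the atrial natriuretic peptide, read 2.86, 1.74 and 2.12 against 1.76, 0.22 and -0.83. Its difference was larger, -1.85 ± 0.82, but the groups overlapped and the low sodium arrays were spread over more than 2 log2 units. Tnfrsf12a, the receptor of the cytokine TWEAK, stood at 1.13, 1.59 and 0.35 against 0.00, -0.11 and -0.23 (-1.14 ± 0.34), and Rcan1, a calcineurin regulator and target, at -0.60 ± 0.22, both without overlap. Beta-myosin Myh7 and skeletal actin Acta1, fetal genes of the contractile apparatus, were at -0.23 ± 0.14 and -0.37 ± 0.31 with overlap. The median of the list was -0.24 without normal sodium replicate 1 and also without low sodium replicate 2.

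Partners of the natriuretic peptides did not form a single pattern. Corin, the protease that activates the atrial peptide, stood at -0.80, -0.85 and -0.35 on normal sodium and at -0.12, 0.34 and 0.24 on low sodium, a difference of 0.82 ± 0.36. The low sodium arrays were all higher. The guanylyl cyclase receptor Npr1 was at -0.33 ± 0.17 and the cGMP phosphodiesterase Pde9a at -0.39 ± 0.11, both lower on every low sodium array. Over the pathway 13 of 16 genes lay below 0, with a median of -0.22 (-0.08 in the authors' values).

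The renin-angiotensin genes of the ventricle had 10 of 13 below 0 and a median of -0.31, which was -0.19 without low sodium replicate 3. Slide 1 gave 0.02 and slides 2 and 3 gave -0.42 and -0.38. The aminopeptidase Rnpep was at -0.72 ± 0.19 and the flavoprotein renalase (Rnls) at -0.40 ± 0.12, both without overlap. Ace, which forms AngII, stood at -0.74, -0.76 and -0.83 against -0.67, -1.27 and -1.50, where the first low sodium array lay above all the others (-0.37 ± 0.18). A dimmer second probe of Ace gave -0.37 ± 0.23 without overlap. The main receptor gene of the heart, Agtr1a, was at 0.03 ± 0.12, and Agtr1b, Agtr2 and Mas1 were too dim to test. Among steroid and sodium genes the mineralocorticoid receptor Nr3c2 stood at 0.30 ± 0.14 (0.11 with overlap by a dim second probe) and the glucocorticoid-induced factor Klf15 at 0.55 ± 0.19, both entirely higher on low sodium, and lipocalin Lcn2 at -0.84 ± 0.33, entirely lower. The metallothionein Mt1 was at -1.40 ± 0.62, but 1 array, normal sodium replicate 2 at 4.39, lay far above the rest and the value without it was -0.74.

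Oxidant and antioxidant genes were divided, with 28 of 39 below 0 and a median of -0.11 that turned to 0.01 with median centring. Entirely lower were 9 (23.1%) and entirely higher 6 (15.4%), against 13.3% and 11.1% of all genes. Hmox1, the haem oxygenase that responds to oxidant stress, read -0.73, 0.24 and -0.86 on normal sodium and -1.87, -1.54 and -1.63 on low sodium. It was lower on every low sodium array by -1.23 ± 0.32, or 2.35-fold (adjusted p = 0.293). Cybb, the catalytic subunit of the phagocyte NADPH oxidase, was at -0.75 ± 0.26 and its partner Cyba at -0.28 ± 0.17, both without overlap. Ucp3, a mitochondrial carrier raised by fatty acids, read 0.15, -1.01 and 0.74 against 1.05, 0.76 and 1.55, higher on every low sodium array by 1.16 ± 0.41.

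Ribosomal protein and complex I genes lay on the other side, by small amounts and with slide 3 near 0. On slides 1, 2 and 3 the median of all genes was 0.02, -0.05 and -0.11. Of 65 cytosolic ribosomal protein genes 61 were above 0, with a median of 0.13, and 28 (43.1%) were entirely higher on low sodium where 11.1% of all genes were. Slides gave 0.17, 0.21 and 0.02, and the median was 0.09 to 0.25 over the scalings tried. Rpl21 stood at 0.27 ± 0.11, Rpl38 at 0.27 ± 0.14 and Rps20 at 0.23 ± 0.13, while Rpl3 was entirely lower (-0.18 ± 0.12). Of 59 mitochondrial ribosomal protein genes 50 were above 0 and 18 (30.5%) were entirely higher. Their median was 0.14 (slides 0.19, 0.21 and 0.02), or 0.09 without normal sodium replicate 2. Mrps31 stood at 0.33 ± 0.11 and Mrps16 at 0.35 ± 0.13 (0.19 by another probe). Complex I, the entry point of the respiratory chain, had 30 of 32 above 0 and a median of 0.10 (slides 0.18, 0.17 and 0.0020), Ndufb3 standing at 0.26 ± 0.13 and Ndufa6 at 0.24 ± 0.12. After quantile normalization 24 of the 32 lay above 0, and 24 did in the authors' values. Complexes II to V and the tricarboxylic acid cycle were nearer the median of all genes. Of 53 genes 36 were above 0 (median 0.06, slides 0.13, 0.09 and -0.09; 0.02 without low sodium replicate 1), and 8 (15.1%) were entirely higher against 11.1% of all genes. Ribosomal proteins have many processed copies in the genome, and a probe may read more than its own gene. No member of these lists passed over the whole array, the smallest adjusted p being 0.358.

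Metabolic lists had medians from -0.05 to 0.09, against -0.05 for all genes, with some single genes further out. Cholesterol synthesis and uptake genes had the highest of these, 0.09, with 17 of 25 above 0 and slides at 0.24, 0.21 and -0.14. Entirely higher were 3 (12%) and entirely lower 1 (4%), against 11.1% and 13.3% of all genes. Fatty acid uptake and oxidation genes had a median of -0.05 (0.07 with median centring), Cpt1b, the gate of mitochondrial fatty acid entry, standing at -0.07 ± 0.10. Glycolysis genes had a median of 0.05, a value that fell on the other side of 0 (-0.04) when normal sodium replicate 1 was omitted and was 0.12 when replicate 3 of that group was. The aldolase isoform Aldoc stood at -0.90, -0.93 and -0.89 against -0.11, -0.06 and -0.45, higher on every low sodium array (0.70 ± 0.17, adjusted p = 0.285); a dim second probe gave 0.45 with overlap. Insulin signalling genes centred on -0.03, or 0.09 with median centring. The insulin receptor substrate Irs2 read -1.52, -1.50 and -0.72 against 0.12, -0.52 and -0.45 (0.97 ± 0.31), and the receptor-binding adaptor Grb14 was at 0.58 ± 0.17 and the growth factor binding protein Igfbp3 at 0.68 ± 0.28. All 3 were entirely higher on low sodium, whereas Igfbp4 was entirely lower (-0.84 ± 0.28). Srebf1, the transcription factor of lipid synthesis, stood at 0.79 ± 0.36 and was entirely higher, and the fructokinase Khk and fatty acid synthase Fasn were at 0.09 ± 0.24 and -0.05 ± 0.17.

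Membrane excitability and calcium genes included several that were higher. Of 37 potassium and sodium channels and pumps 21 were above 0 (median 0.07), with slides at 0.19, 0.03 and -0.09 and a median of 0.02 without low sodium replicate 1. Entirely higher were 8 (21.6%) and entirely lower 3 (8.11%), against 11.1% and 13.3% of all genes. Kcnj12, an inward rectifier, stood at -1.61, -1.49 and -1.11 on normal sodium and -0.65, -0.91 and -0.90 on low sodium (0.58 ± 0.16), the sodium pump subunit Atp1b1 at 0.41 ± 0.13 and the anion exchanger Slc4a3 at 0.37 ± 0.11. No array of these 3 genes crossed between groups. The plasma membrane calcium pump Atp2b1 was at 0.58 ± 0.16 and the phosphatase inhibitor Ppp1r1a at 0.51 ± 0.18 (0.35 with overlap by another probe), entirely higher, while the sarcoplasmic pump Atp2a2 and the ryanodine receptor Ryr2 were at -0.07 ± 0.13 and -0.28 ± 0.17 with overlap. Adult contractile genes had a median of -0.14, with 17 of 17 below 0, none without overlap and slide 1 at 0.05. That count depended on the scaling, with 7 of 17 above 0 and a median of -0.02 under median centring and 2 above 0 after quantile normalization, and the median was -0.04 without low sodium replicate 3.

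Atrial genes varied widely from array to array. Sarcolipin (Sln), the atrial regulator of the calcium pump, read -3.10, -2.74 and 0.65 on normal sodium and -0.72, 2.07 and 0.93 on low sodium, and Myl7 read -1.72, -3.87 and -2.30 against -1.24, 0.17 and -3.89. Both groups overlapped widely, and the spread between arrays of 1 diet exceeded the differences of 2.49 ± 1.22 and 0.98 ± 1.05. The atrial list of 8 tested genes had the highest median of the 48 lists, 0.38, with 7 above 0. Slides gave 0.39, 0.24 and 0.10, and the median was 0.25 to 0.44 with single arrays left out. In 1 gene (12.5%) the low sodium arrays were entirely higher, against 11.1% of all genes. The score of the atrial list ran from -0.67 to 0.16 on normal sodium and from 0.05 to 0.57 on low sodium. Whether dissected ventricles held different amounts of atrial tissue was not tested.

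Vessel growth, apoptosis and stress lists completed the picture. Of 30 angiogenic ligands and receptors 24 lay below 0 (median -0.25), and 9 (30%) were entirely lower, against 13.3% of all genes. The vessel-destabilising Angpt2 stood at -0.76 ± 0.19, the ephrin receptor Ephb4 at -0.48 ± 0.13 and the lymphatic factor Vegfd at -0.92 ± 0.28 (-0.22 in the authors' values). The main growth factor Vegfa and its receptor Kdr were at -0.02 ± 0.11 and -0.11 ± 0.25. Apoptosis and p53 genes had 21 of 30 below 0 and a median of -0.21, with 12 (40%) entirely lower, against 13.3% of all genes. The median was -0.13 without low sodium replicate 3 and -0.10 in the authors' values. The inflammatory caspase Casp1 stood at -1.50, -1.30 and -1.61 against -2.17, -1.92 and -1.87 (-0.52 ± 0.15), without overlap. The apoptosome scaffold Apaf1 stood at -0.47 ± 0.13 by its brightest probe and at 0.13 ± 0.18, with overlap, by another. The antiapoptotic Bcl2 was entirely higher at 0.39 ± 0.25. Clock genes had a median of -0.24, which was -0.01 without low sodium replicate 3, and heat shock genes one of -0.08, or 0.04 with median centring. Sqstm1, an autophagy receptor, was entirely lower at -0.82 ± 0.24 by its brightest probe but at -0.10 ± 0.14 by another. Tubulins were mixed, Tuba8 at 0.64 ± 0.22 and Tuba3b at -0.83 ± 0.17, both without overlap.

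The same diets without AngII give a second measure of the leading genes on arrays that did not choose them, although slides and the estimate of variance were shared. All 12 leading lower genes had the same sign there and 9 of the 12 leading higher genes did, against 57.2% of all genes. The lower 12 include Cenpa, whose infused difference came from signals near background and reversed in the authors' values. The uninfused differences were smaller in all 24, with medians of -0.33 against -0.87 for the lower genes and 0.10 against 0.74 for the higher genes. Since the infused differences were selected for size and the uninfused were not, a smaller value is no test of the infusion. Col3a1 was at -0.42 ± 0.12, Col8a1 at -0.72 ± 0.23 and Vim at -0.37 ± 0.12 without AngII. Across all 11211 genes, which are not independent, the 2 diet differences correlated at Pearson's r 0.28.

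Several list medians without AngII lay on the same side of 0 as with it, and the median of all genes was -0.02 there. Others did not, among them smooth muscle and pericyte markers (0.05), clock genes (0.13), oxidant and antioxidant genes (0.02) and cholesterol genes (-0.03). Fibrillar collagens were at -0.18, elastic fibre and matricellular genes at -0.28, macrophage markers at -0.42, endothelial markers at -0.30 and mitosis genes at -0.40. Cardiac stress genes stood at -0.02, apoptosis genes at -0.02, complement genes at -0.08 and cytosolic ribosomal proteins at -0.05 without AngII. Interferon genes stood at 0.19, with 31 of 41 above 0 and slides at -0.05, 0.73 and -0.14, so that only the slide 2 pair lay above 0. Differences between lists were not tested.

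**Figure D5:**
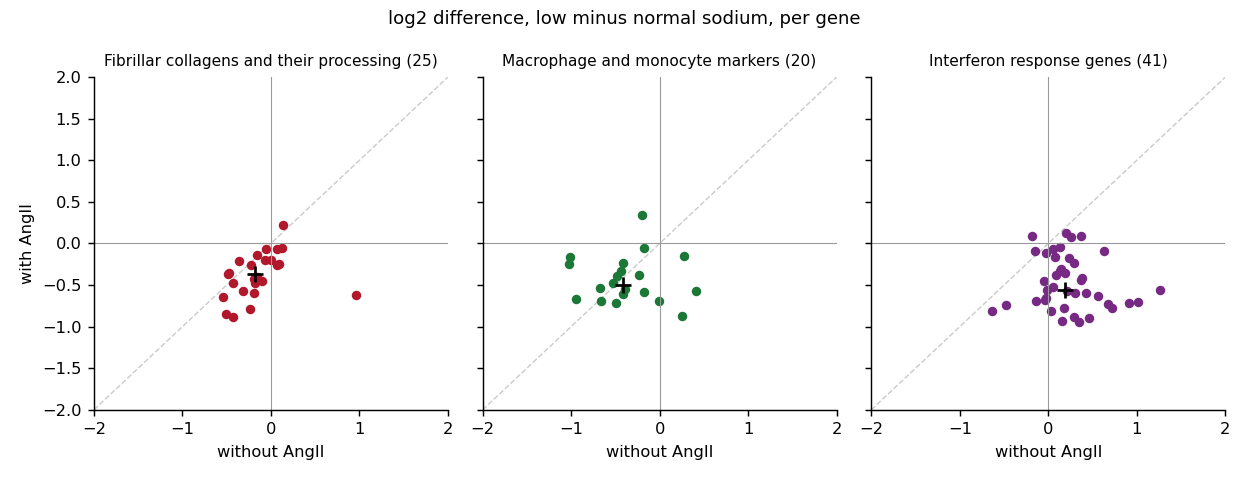
Log2 difference between low and normal sodium per gene without AngII (horizontal) and with AngII (vertical) for 3 lists, with a cross at the list medians and a dashed line of equality. Medians are -0.18 and -0.36 for collagens, -0.42 and -0.50 for macrophage markers, and 0.19 and -0.56 for interferon genes.

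The interaction, the diet difference with AngII minus that without, tests gene by gene whether infusion altered the diet difference. Limma called 0 of 20020 probes (0%), with 1014 (5.06%) at an unadjusted p under 0.05 and a smallest adjusted p of 0.51. That p was again Plcd4's, at 1.52 ± 0.22. Ccdc157, a coiled-coil gene, and the heparan sulfotransferase Hs3st5 followed among higher values, at 1.28 ± 0.25 and 1.07 ± 0.23. Tuba3b at -1.15 ± 0.24, the interferon-induced Trim34 at -1.08 ± 0.23 and the DNA methyltransferase Dnmt3a at -1.14 ± 0.25 led the lower ones, all with an adjusted p of 0.857. Irf7 stood at -1.72 ± 0.41, Col3a1 at -0.46 and Nppb at -0.61, none past the threshold. At this number of arrays no gene was shown to respond to salt differently with and without the infusion.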

How the data were processed

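The arrays were Agilent one-colour rat gene expression arrays read with Feature Extraction 10.7.3.1, per the file headers; the submitters' processing notes name version 11.0.1.1, R 3.3.04 and limma. The deposited scanner files hold spot intensity already background-subtracted and detrended within the array, per the file headers, with no scaling between arrays, and 0 or 1 flags for detection and outliers. The authors' own values are log2 values of 20438 probes with a normalization that is not given in the sources used here, and it served as an alternative.

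Each log2 intensity was scaled by the 75th percentile of its array over non-control spots, outlier spots were left out and spots of a probe were averaged. Probes well above background on all 3 arrays of at least 1 group were tested (20020 of 30367), and 60 of them lack a value on some array. Limma 3.58.1 (R 4.3.3) fitted all 4 groups together, so they share 1 estimate of the spread, with Benjamini-Hochberg adjustment over all probes. The procedure was tested on simulated data with independent noise on each array. The simulation held no deviation shared within slides, so it cannot show how the fit behaves under it. Accessions in the scanner files, matched without versions to RefSeq (GRCr8, used for names and promoters), gave 1 symbol for 18758 probes and none for 11609. A gene is represented by its tested probe of highest mean.

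Named genes were the 12 of smallest p per direction without overlap, up to 4 of smallest p and set anchors in each of 48 lists (1210 tested genes), and the 3 of smallest interaction p per direction. Members and lists were chosen with earlier results of these data known. A score is the mean deviation of a list's members from their average over the 6 arrays. Replicate numbers mark the slide per the file headers, and 17 of 18 same-numbered pairs of arrays deviated together with a correlation above 0.1 (0.0469 to 0.432), so the block was run as an alternative. Other alternatives changed background correction, scaling, filter, arrays in the fit, array weights, variance prior, the choice of probe and single arrays. Precision is limited by 3 arrays per group. Some results are not reported here.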

Additional observations from a re-analysis of the deposited data

Results flagged for a closer look

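For 2 gene lists the 3 within-slide medians of the diet difference lay on one side with AngII and on the other without it, and the difference between them was not tested. Fatty acid uptake and oxidation genes had slide medians of -0.04, -0.07 and -0.07 with AngII and of 0.10, 0.20 and 0.07 without, and the median of the genes' differences between the infused and uninfused comparison was -0.17. Genes of neutrophils, red cells and platelets had slide medians of -0.21, -0.46 and -0.49 with AngII and of 0.29, 0.07 and 0.04 without, and the corresponding median was -0.55. Over the 3 uninfused arrays per diet this list's median was -0.03, with 7 of 15 genes above 0, on the same side of 0 as its median with AngII (-0.38). The side of the fatty acid list with AngII depended on the scaling, since its median was -0.05 in the reported fit and 0.07 after median centring. The median of all genes was likewise -0.05 and 0.07. Slide medians of all genes were 0.02, -0.05 and -0.11 with AngII and -0.06, -0.01 and 0.01 without.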

How the results depend on the processing

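Of the named genes, 146 of 159 kept the direction of their difference in all 18 settings tried. RT1-Bb spanned -0.41 to 4.88 with single infused arrays left out. Limma called 0 probes in the reported fit, 8 with array weights, 4 with a trended robust prior, 3 after normexp, 2 in the authors' values, 2 with the filter on all 6 infused arrays and 1 after quantile normalization. Leaving out single arrays gave 0 to 3, namely 1 when infused low sodium replicate 3 was omitted and 3 when uninfused normal sodium replicate 1 was, the latter added after seeing the data, as was the percentile over probes. Probes higher at an unadjusted p under 0.05 numbered 2037 in the authors' values and 1306 with array weights, and 367 to 777 with single infused arrays left out. Lower probes numbered 620 with median centring and 2540 with array weights, and 863 to 2058 with single infused arrays left out. Normal sodium replicate 2 of the infused arrays, left out, gave 367 higher and 921 lower, and low sodium replicate 3 gave 428 and 863. The elastic fibre median was -0.15 with median centring and -0.34 as the mean of each gene's probes, and the cytosolic ribosomal median was 0.25 with median centring. With the replicate block, 0 probes were called, 717 were higher and 1622 lower at an unadjusted p under 0.05, and the smallest adjusted p was 0.072; no other call changed with it. With only the 6 infused arrays in the fit the smallest adjusted p was 0.228.

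Reversals concerned small differences, apart from RT1-Bb and Cenpa. RT1-Bb, at 2.91 by its brightest probe, reversed when a single infused array was left out. Cenpa, at 0.33 in the authors' values, was a probe near background on low sodium. With median centring Atp2a2 was at 0.050, Cpt1b at 0.049, Fasn at 0.064, Kdr at 0.011, Myh6 at 0.056, Myl2 at 0.10, Tnni3 at 0.054 and Vegfa at 0.10. After quantile normalization Myh6 was at 0.052 and Myl2 at 0.016. With the percentile taken over probes Myl2 was at 0.023 and Vegfa at 0.024. After normexp Agtr1a was at -0.021 and Vegfa at 0.0023. With array weights Myl2 was at 0.026 and Vwf at 0.0051. As the mean of probes Atp2a2 was at 0.015. With single arrays left out Agtr1a ranged from -0.050 to 0.13, Atp2a2 from -0.12 to 0.027, Fasn from -0.20 to 0.079, Khk from -0.091 to 0.20 and Myh6 from -0.12 to 0.032. Myl2 ranged from -0.13 to 0.13, Tnni3 from -0.11 to 0.0053, Vegfa from -0.089 to 0.079 and Vwf from -0.34 to 0.059 likewise. Median centring shifted all genes by a common amount, and the median of all named genes went from -0.05 to 0.07. The causes of the other reversals were not tested. Differences of the dim probes Postn, C3ar1 and Vegfd were smaller under normexp as well as in the values of the authors; signal over background limits them.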
